A study of Mus musculus with 4 samples.

Results

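Isolated CTCF peaks are the binding sites of CTCF that stood alone on their chromosome: no other peak summit of the same list lay within 200 kb on either side. They were chosen from the deposited list that is supported by both pools of mice, called the conservative list here, and only on the autosomes. The rule kept 562 of the 43448 autosomal peaks of that list (44672 on all chromosomes), and the 42886 autosomal peaks left out are called the other peaks. The rule used the peak calls and the summit positions of these same data, so the distance to the neighbours is a property of the choice, and no test was run on the members.

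The material was frozen left cerebral cortex of female B6CASTF1/J mice, whose strain name denotes F1 hybrids between C57BL/6J and CAST/EiJ, at an age of 2 months. CTCF-bound DNA was recovered by chromatin immunoprecipitation and sequenced (ChIP-seq) in 4 libraries. Pool I, labelled biological replicate 1, and pool J, labelled biological replicate 2, each joined 4 cortex biosamples and gave 2 technical replicate libraries. All libraries shared the strain, sex, age, tissue and antibody, and no other group was compared. The deposited lists merge the libraries of a pool, so there is no value per library and the read depth is unknown. Because tissue was pooled and not sorted, a site bound in few cells and a site bound weakly in many cells cannot be told apart.

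CTCF is a zinc finger protein that binds a long, directional DNA motif. In current models it halts cohesin as cohesin extrudes chromatin loops, and the motifs at both feet of a loop usually point towards each other. Most of the genome of mammals has CTCF sites in close succession, and long stretches without them are typical of gene-poor DNA.

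The motif matrix was trained on 1000 peaks, those of highest signal on odd-numbered autosomes, and its most frequent base at each of the 20 positions read GTGGCCACCAGGGGGCGCTA. A match was called where the score passed the level that 1% of flanking windows reached, with the centre of the match within 50 bp of the summit. The next 6 sequences are the matches under the strongest isolated peaks, and they are shown because they carry the most CTCF signal among isolated sites with a match. Each has 15 bases of flank in lower case, the match in capitals, and the gene that contains it or, failing that, the protein-coding gene with the nearest transcription start site (TSS). Coordinates here and throughout are 1-based on mm10, read from the RefSeq copy of GRCm38.p6, which holds the C57BL/6J sequence and not the CAST/EiJ allele.

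Mctp2, chr7:71867277-71867326, minus strand: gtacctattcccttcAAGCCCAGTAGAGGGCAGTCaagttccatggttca
Lmo3, chr6:138477754-138477803, plus strand: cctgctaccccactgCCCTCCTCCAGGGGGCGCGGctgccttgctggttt
Plxna2, chr1:194223141-194223190, minus strand: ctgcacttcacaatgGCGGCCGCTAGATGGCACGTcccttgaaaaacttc
Arrdc4, chr7:69490963-69491012, plus strand: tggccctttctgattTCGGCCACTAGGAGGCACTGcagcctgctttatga
Lhcgr, chr17:88954194-88954243, plus strand: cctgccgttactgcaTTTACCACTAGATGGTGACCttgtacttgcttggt
Cntnap2, chr6:45323678-45323727, plus strand: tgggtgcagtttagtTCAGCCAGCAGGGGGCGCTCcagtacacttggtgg

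These 6 matches had 10 to 15 of the 20 positions equal to the most frequent base. The match in Cntnap2, a neurexin-related adhesion gene, had 15 equal positions and a score of 22.95. The match nearest Lhcgr, the luteinizing hormone receptor gene, had 10 and a score of 14.21. Scores are log2 odds against equal base use. The matches under the peaks farthest from any neighbour are shown next, ranked by the distance to the nearer neighbouring summit.

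Vmn1r66, chr7:10354864-10354913, plus strand: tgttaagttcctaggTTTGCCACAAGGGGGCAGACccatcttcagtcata
Gm10330, chr12:22952114-22952163, minus strand: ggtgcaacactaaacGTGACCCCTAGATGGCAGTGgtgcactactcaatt
Tpm3-rs7, chr14:112895749-112895798, minus strand: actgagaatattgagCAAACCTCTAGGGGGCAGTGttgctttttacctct
Cited2, chr10:16637204-16637253, plus strand: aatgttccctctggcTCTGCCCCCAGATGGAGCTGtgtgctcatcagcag
Lrfn5, chr12:62893396-62893445, minus strand: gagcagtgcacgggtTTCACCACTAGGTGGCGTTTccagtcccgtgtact
4931408C20Rik, chr1:26902471-26902520, plus strand: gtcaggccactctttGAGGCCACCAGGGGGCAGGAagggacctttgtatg

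These had 11 to 16 positions equal to the most frequent base and scores of 13.61 to 21.06. The 3 windows of 300 bases below are centred on the summits of the strongest member with a match, the strongest member without one and the most isolated member, all on the plus strand. In the windows nearest Mctp2 and Vmn1r66 the capitals mark the match. In the window nearest Onecut1 they mark the best-scoring 20 bases, whose score of 9.21 fell short of the threshold.

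Mctp2, chr7:71867157-71867456, plus strand: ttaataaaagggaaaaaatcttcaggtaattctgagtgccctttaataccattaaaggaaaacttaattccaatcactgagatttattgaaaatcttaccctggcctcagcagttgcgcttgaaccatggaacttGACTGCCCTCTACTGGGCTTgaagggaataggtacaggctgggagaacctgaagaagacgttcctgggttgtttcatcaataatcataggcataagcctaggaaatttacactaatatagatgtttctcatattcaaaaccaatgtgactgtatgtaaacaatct
Onecut1, chr9:74530358-74530657, plus strand: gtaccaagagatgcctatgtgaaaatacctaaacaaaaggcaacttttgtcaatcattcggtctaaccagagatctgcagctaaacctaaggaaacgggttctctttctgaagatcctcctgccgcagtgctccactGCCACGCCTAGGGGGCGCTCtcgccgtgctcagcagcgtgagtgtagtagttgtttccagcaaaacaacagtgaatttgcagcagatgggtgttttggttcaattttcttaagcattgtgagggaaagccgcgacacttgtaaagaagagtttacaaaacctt
Vmn1r66, chr7:10354723-10355022, plus strand: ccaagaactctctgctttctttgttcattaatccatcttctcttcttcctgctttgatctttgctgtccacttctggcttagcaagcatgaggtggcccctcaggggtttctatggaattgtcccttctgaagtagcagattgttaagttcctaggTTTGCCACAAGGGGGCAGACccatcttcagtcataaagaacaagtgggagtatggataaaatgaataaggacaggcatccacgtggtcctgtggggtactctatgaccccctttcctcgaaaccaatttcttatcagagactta

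The stretch in the Onecut1 window holds a GC-rich core, and this was nevertheless the strongest isolated peak. The absence of a call therefore means only that no 20 base window near that summit passed the score, not that the site lacks CTCF sequence.

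Isolated peaks were weaker than the other peaks. Their median signal value, in the peak caller's own unit, was 199 (95% interval of the median 186 to 214, n = 562), against 272 (268 to 275, n = 42886) in the other peaks. The range of values ran from the bottom to near the top of the list. The weakest isolated peak, nearest Auts2, had a signal value of 67.3 and stood above only 0.633% of all autosomal peaks, whereas the strongest, nearest Onecut1, had 625 and stood above 98.1% of them. By quintile of signal over all autosomal peaks, 26.9% of isolated peaks were in the weakest and 6.41% in the strongest quintile, against 19.9% and 20.2% of the other peaks. Isolated peaks were also narrower, with a median width of 269 bp against 310 bp. Signal entered the peak call that the rule uses, so these values are a description.

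**Figure D1:**
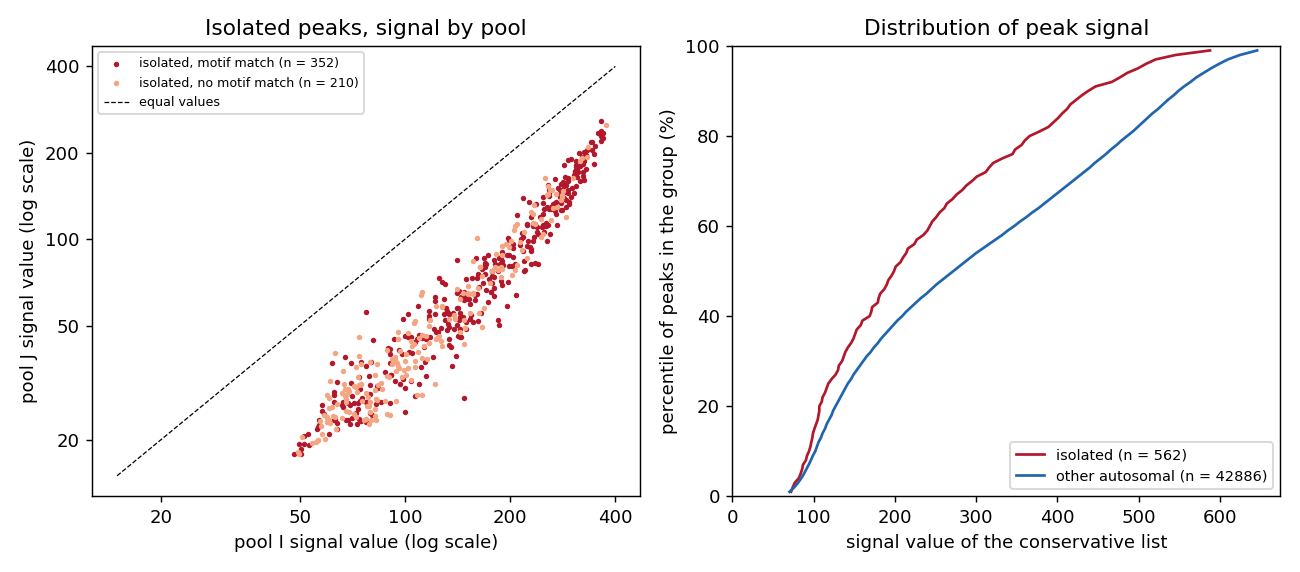
Left, the pool I against the pool J signal value of each of the 562 isolated peaks on log axes, coloured by motif match, with the line of equal values; every point lies on the pool I side of the line. Right, the percentile of peaks in each group against the signal value of the conservative list; the curve of isolated peaks lies to the left of that of the other peaks over most of its length, with medians of 199 and 272.

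Both pools gave the isolated peaks nearly the same order. Signal values of the members in pool I and pool J ranked alike, with a Spearman rho of 0.97 over 562 peaks and of 0.97 over the 42886 other peaks (both pools enter the same call, so this is a description). The median signal value of the members was 144 in pool I and 55.6 in pool J, against 188 in pool I and 84.3 in pool J for the other peaks. On the log2 scale, pool I over pool J had a median of 1.24 (1.20 to 1.27) in isolated and 1.09 (1.08 to 1.09) in other peaks. The ratio was lower at higher signal in both groups: its median in the weakest quintile was 1.41 in isolated and 1.38 in other peaks, and in the strongest quintile 0.73 in isolated and 0.67 in other peaks. The difference of 0.16 between the groups shrank to 0.04 when quintiles were compared with each other. Only 1 isolated peak (0.178%) had a pool ratio more than 2-fold from the median of all autosomal peaks, and the background share in the other peaks was 0.49%. The lowest log2 ratio among isolated peaks, 0.47, belonged to a peak inside Cntn5, a neuronal contactin, with 77.2 in pool I and 55.7 in pool J.

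Nearly all isolated peaks overlapped peaks of the list of each pool. Members and other peaks both come from a list that both pools support, so high overlap follows largely from that choice and is a description. All 562 overlapped a peak of the list of pool I by at least 1 bp, and 534 (95%, exact binomial interval 92.9 to 96.7%) overlapped peaks of both the pool I and the pool J list. The background share in the other peaks was 96.9%. The list made from the pooled reads held 548 of them (97.5%, against 98.3% of the other peaks). The highest possible score of 1000 was given to 92.2% of isolated and 93.9% of other peaks.

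The strongest isolated peak, at chr9:74530324-74530703, was intergenic and 331413 bp away from the start of Onecut1, a homeobox transcription factor gene, with signal values of 375 in pool I and 250 in pool J. The second, at chr7:71867112-71867492, lay 439301 bp from Mctp2, which encodes a membrane protein with C2 domains, with 363 in pool I and 258 in pool J. The third was in an intron of Lmo3, a LIM-only transcriptional cofactor gene, at chr6:138477589-138478007, with 365 in pool I and 239 in pool J. A further intronic peak, at chr6:45323490-45323899 in Cntnap2, had 356 in pool I and 235 in pool J.

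Another pair of the strongest was at promoters of long noncoding RNA genes. The peak at chr1:194222972-194223366 lay 416 bp from the TSS of 4930503O07Rik and 396650 bp from Plxna2, a receptor gene for semaphorins, with 368 in pool I and 235 in pool J. The peak at chr7:69490793-69491172 lay 180 bp from the TSS of Gm38584, and the closest protein-coding start, that of Arrdc4, was 741740 bp away. The others were intergenic and nearest Lhcgr, St3gal1 (a sialyltransferase), Meis2 (a homeobox factor) and Tle4 (a Groucho family corepressor), with signal values of 589, 585, 566 and 559 in the conservative list. Of the 10, all but the one nearest Onecut1 had a motif match. In all 10 the pool I value was above the pool J value, with log2 ratios of 0.49 to 0.73.

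The most isolated peak lay nearest Vmn1r66, a vomeronasal receptor gene, at chr7:10354685-10355060. Its neighbours were 3055327 bp away on the left and 2123377 bp away on the right, and its signal value was 81.8, above only 3.23% of all autosomal peaks. The next were nearest Gm10330, Tpm3-rs7, Cited2 (a transcriptional coregulator gene) and Lrfn5 (a synaptic adhesion gene), with the nearer neighbour 1338186, 1086525, 1085598 and 1066912 bp away. The rest of the 10 were nearest 4931408C20Rik, Nxph1 (a neurexin ligand), Slc39a10 (a zinc transporter), G6pd2 and Epha5 (an ephrin receptor), at 880585 to 993039 bp. Their signal values ran from 81.8 to 247, all below the median of the other peaks, and 9 of the 10 had a motif match.

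Across all members, signal showed no trend with isolation. The median distance to the nearer neighbour was 272691 bp in isolated and 9294 bp in other peaks. Members whose nearer neighbour was 200 to 250 kb away had a median signal of 191 (n = 220), those at 250 to 350 kb 208 (n = 178), those at 350 to 500 kb 237 (n = 91), and those beyond 500 kb 181 (n = 73). Spearman's rho between signal and this distance was 0.00 over the 562 members, which share the same libraries. The share with a motif was 61.4%, 62.9%, 61.5% and 67.1% in the same order, with overlapping intervals.

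The 5 weakest members lay nearest Auts2, Klhl29 and Tusc1 and inside Sox6 and L3mbtl4, with signal values of 67.3 to 70.2. Auts2 is a neurodevelopmental regulator gene and Sox6 a transcription factor gene. Their pool I values were 48.2 to 50.5 and their pool J values 17.9 to 18.6. The weakest of all, nearest Auts2, had a motif match with a score of 22.03, above the scores of 7 of the 9 matches under the 10 strongest members.

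At the edge of the rule, the 3 members with the closest neighbours lay nearest Gata3, Cadm2 and Lhcgr, with that neighbour 200326, 200435 and 200923 bp away and signal values of 103, 129 and 589. Just outside were a pair of peaks nearest Ndufa4, 199914 bp from each other, with signal values of 84.7 and 478, and a peak at the promoter of Npy1r, 199649 bp from its neighbour, with 325. Weak and strong peaks were named on either side of the threshold, with 3 peaks on each side.

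A motif match was found under 352 isolated peaks (62.6%, 58.5 to 66.6%), beside a background share of 68.7% in the other peaks. In the windows 1000 bp to each side of the summits the share was 0.267% of 1124 windows around isolated and 0.994% of 85772 around other peaks. Where a match was present its centre lay within 20 bp of the summit in 93.5% of isolated and 92.7% of other peaks. Within isolated peaks the median signal was 237 with a match and 146 without one, against 336 and 178 in the other peaks.

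The difference in motif share shrank when peaks of like signal were compared. In the weakest quintile 45.7% of isolated and 52.3% of other peaks had a match, in the second 58.3% and 57.5%, in the third 70.1% and 66.9%, in the fourth 76.3% and 79.3%, and in the strongest 86.1% and 87.2%. The difference of -6.07 percentage points between all isolated and all other peaks became -1.37 when the quintiles were weighted by the members. At the looser threshold that 5% of flanking windows pass, the order turned round, with 90.0% of isolated and 88.8% of other peaks. At the stricter threshold that 0.1% pass, 9.25% of isolated and 13.2% of other peaks had a match. By GC content of the 300 bases at the summit, at the 1% threshold, the isolated share was the lower one in every class. Below 38% GC it was 63.1% against 73.7% of other peaks, and from 38 to under 42% it was 59.3% against 74.4%. From 42 to under 46% it was 69.8% against 74.2%, and from 46 to under 50% it was 57.7% against 70.6%. At 50% GC and above it was 59.6% against 61.3%. In the class from 42 to under 46% and in that of 50% and above, the intervals of the isolated share were 61.1 to 77.5% and 44.3 to 73.6%. Both include the share of the other peaks. The GC classes were not matched for signal, and isolated peaks had the lower median signal in every class.

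**Figure D2:**
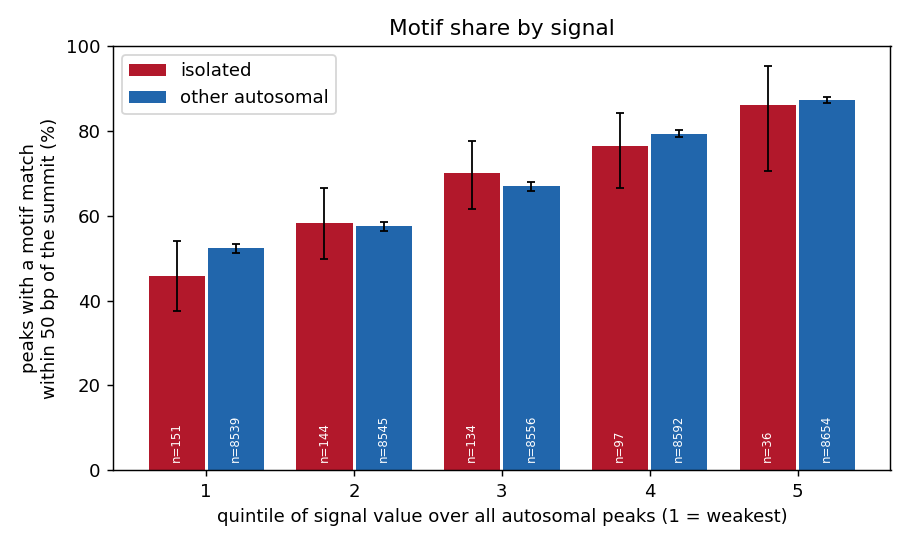
The share of peaks with a motif match within 50 bp of the summit, in percent, by quintile of signal value over all autosomal peaks, for isolated (left bars) and other autosomal peaks (right bars), with exact 95% binomial intervals and the number of peaks in each bar. The share of isolated peaks climbs with signal to 86.1% in the strongest quintile, and its interval overlaps that of the other peaks in every quintile.

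The matches themselves differed in base composition. A CpG, the dinucleotide that carries most DNA methylation and that has been linked to methylation-sensitive CTCF binding, occurred in 80 of 352 matches under isolated peaks (22.7%, 18.5 to 27.5%), against 40.2% (39.7 to 40.8%) of matches under other peaks. The mean GC content of the matches was 59.3% in isolated and 62.8% in other peaks. Counting positions from 1 at the start of the consensus printed above, shares differed in both directions. At position 8 the share of matches with the consensus letter C was 58.0% in isolated and 45.9% in other peaks. This gap was narrower without the group of similar sequences described further below. The share of matches with the consensus letter C at position 16, inside the GC-rich core, was 74.1% in isolated and 84.8% in other peaks. At position 19 the share with C was 29.3% in isolated and 43.3% in other peaks, and the share with T was 52.0% and 40.3%. The match score was close, with a median of 16.3 in isolated and 16.92 in other peaks, and it followed signal less closely in isolated peaks: Spearman's rho was 0.09 over 352 matches, against 0.31 over 29466.

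Isolated sites lay in AT-rich DNA at both scales measured. The 300 bases around the summit had a median GC content of 41.0% (n = 562) against 47.3% in other peaks, and a median of 2 CpG against 3. The 400 kb centred on the summit had 38.1% (37.9 to 38.2%) against 44.6% (44.6 to 44.7%). For positions set every 100 kb along the autosomes, called the grid, that median was 41.6%, and for the 2663 grid positions with no conservative summit within 200 kb it was 37.6%. Soft-masked bases, which mark interspersed and simple repeats in the reference, made up 40.2% of the surrounding 400 kb at isolated and 28.6% at other peaks, with 31.7% on the whole grid and 44.4% on its empty positions. The surroundings of isolated peaks were thus close to those of the empty positions, which the rule favours by construction.

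Protein-coding genes were far away. The median distance from an isolated summit to the nearest protein-coding TSS was 358185 bp, against 19654 bp for other peaks, and 70.5% of isolated peaks had no such TSS within 200 kb, against 8.02%. The empty grid positions had a median of 383621 bp and a share of 69.7%. The farthest members included a pair nearest Pcdh20, a protocadherin gene, at 2543502 and 2209168 bp. Others in this class lay 2389723 bp from Cdh20, a cadherin gene, 2373821 bp from Cntnap5b and 2292856 bp from Tenm3, a teneurin gene. When lncRNA starts were counted too, the median distance was 137316 bp, against 14372 bp.

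**Figure D3:**
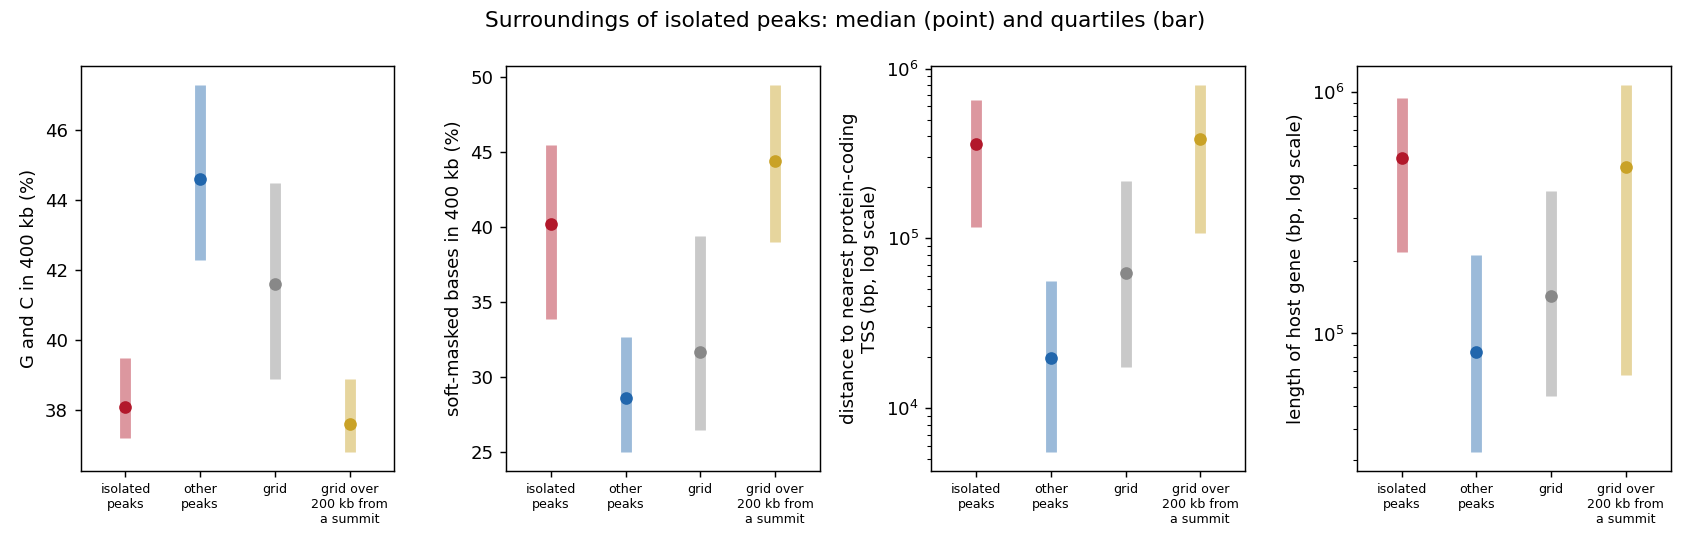
Median (point) and quartiles (bar) of the GC content and of the soft-masked share of 400 kb in percent, of the distance to the nearest protein-coding TSS in bp and of the length of the host gene in bp, the last pair on log axes. Isolated peaks, at 38.1% GC, lie near the grid positions without a summit within 200 kb, at 37.6%, and apart from the other peaks, at 44.6%.

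Most isolated peaks were intergenic: 402 of 562 (71.5%, 67.6 to 75.2%), against 36.9% of other peaks, 51.8% of the grid and 81.5% of the empty grid positions. Introns held 23.0%, against 45.9%. Coding exons held 0.534% of isolated and 2.04% of other peaks, and 3' UTRs 0.356% and 1.92%. No member was classed as 5' UTR, against 0.0746% of other peaks. Coding exons and UTRs together held 5 members. They were in the 3' UTR of Ppfia2, a liprin gene of presynaptic assembly, with a signal value of 389, in a coding exon of Cadm2, a synaptic adhesion gene, with 197, in the 3' UTR of Vmn2r76 with 192, in a coding exon of Pcdh18 with 137 and in one of Malrd1 with 129.

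Promoters, counted as summits within 1000 bp of a TSS, held 24 isolated peaks (4.27%, 2.76 to 6.29%), beside a background share of 12.4% in the other peaks. The grid had 2.85% and its empty positions 1.05%. Of the 24, the closest TSS was of a protein-coding gene in 16 and of a lncRNA in 8. A motif match was present at 6 of the 24 (25%, 9.77 to 46.7%) and at 65.2% of intergenic isolated peaks (60.3 to 69.8%); in the other peaks these shares were 44.5% and 74.3%. The strongest promoter members by signal value were those of 4930503O07Rik (597), Gm38584 (590), Gm13974 (531), Lingo2 (520) and 1700022H16Rik (442). The last stood 4369 bp from Osr1, a zinc finger factor gene of early organ formation. Lingo2, which encodes a leucine-rich repeat membrane protein of neurons, was the only one of these 5 without a match and had 31 CpG in the 300 bases at the summit. At least 10 CpG in that window were seen at 4.27% of all isolated and 14.1% of all other peaks.

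Where an isolated peak did lie inside a protein-coding gene, the gene was long. This held for 116 members (20.6%, against 52.9% of other peaks), and the median length of the host gene was 531604 bp, against 83725 bp for other peaks and 490874 bp for the empty grid positions. Host genes over 500 kb held 55.2% of these members and 9.55% of the other peaks inside genes. Among genes with several members, Lingo2 had 4, which were all of the conservative summits in its 1245101 bp. Their signal values along the gene, from low to high coordinate, were 146, 381, 251 and 520. In pool I they were 95.6, 272, 180 and 332, and in pool J 44.9, 112, 73.8 and 193, so both pools placed the promoter peak highest and the first peak lowest.

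Sgcd, a dystrophin complex gene, had 3 isolated peaks with signal values of 79.2, 283 and 274. Among genes with a pair, the 8 with the strongest peak were Cntnap2, Grm8, Cdh18, Cntn5, Lrp1b, Mgat4c, Fhit and Lrrtm4. In Cntnap2 the pair had 588 and 77.0, and the gene held 12 conservative summits in 2244857 bp. In Grm8, a metabotropic glutamate receptor gene, the pair had 461 and 97.5. In Cdh18 it had 337 and 84.5. In Mgat4c both summits of the gene were isolated, with 137 at its promoter and 209 in an intron.

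Of the 562 isolated peaks, 310 (55.2%) had another isolated peak as a direct neighbour, which made 188 adjacent pairs. The gaps that the rule requires enter this count, so it is a description. The longest run had 8 members over 2.38 Mb of chromosome 3, between Prmt6, an arginine methyltransferase gene, and Amy2a5 of the amylase cluster, with signal values of 99 to 402 and 6 motif matches. A run of 6 on chromosome 14 spanned 2.89 Mb beside Pcdh20 and Pcdh9. By chromosome, isolated peaks made up most on chromosome 3 (55 peaks, 2.55% of its peaks), chromosome 12 (41, 2.36%) and chromosome 14 (36, 2.03%), and least on chromosome 11 (16, 0.499%). The share tracked the density of peaks, as the rule implies, with a Spearman rho of -0.89 over the 19 autosomes.

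The space around isolated peaks was sparse also in weaker signal. The ranked list of both pools holds the peaks before the threshold on the irreproducible discovery rate. Its summits outside the conservative list numbered 12.2 per Mb within 200 kb of a member, against 36.1 per Mb over the autosomes. They were somewhat denser next to the member, with 15.8 per Mb within 20 kb and 11.7 per Mb from 20 to 200 kb. Few sites stood alone in this longer list: 23 isolated peaks (4.09%) had no other ranked summit within 200 kb. Against the list from pooled reads, 423 (75.3%, 71.5 to 78.8%) had no summit within 200 kb outside their own peak.

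**Figure D4:**
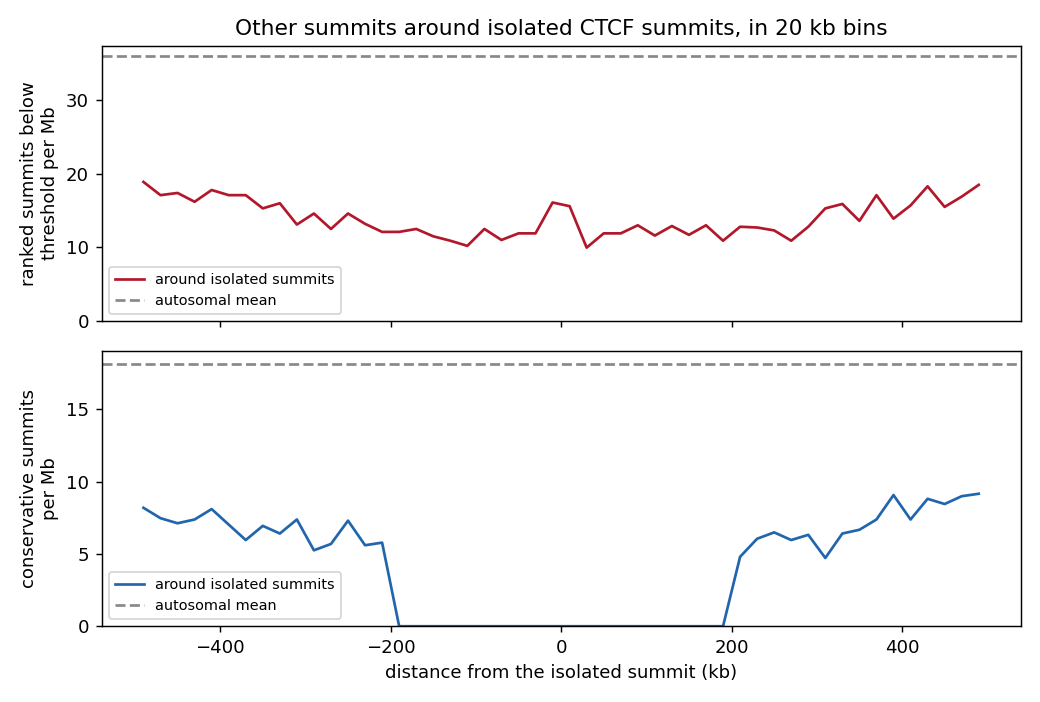
Summits per Mb in 20 kb bins against distance from the isolated summit in kb, above for ranked summits below the threshold and below for conservative summits, with the autosomal mean as a dashed line. Weaker summits number 15.8 per Mb within 20 kb and 11.7 per Mb from 20 to 200 kb, under the autosomal 36.1; the gap in the lower panel is set by the rule.

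The sequence around isolated peaks also held few motif matches. There were 17.12 matches per Mb within 200 kb of isolated summits and 16.04 per Mb in sequence farther than 200 kb from any conservative summit, against 49.07 per Mb over all autosomal sequence. At the strict threshold there were 0.45 and 0.39 per Mb, against 3.04. Matches were also less often occupied there: 9.68% of those within 200 kb of an isolated summit lay under a conservative summit, against 25.8% over the autosomes. At the strict threshold 52 of 95 (54.7%) did, against 78.9% of 7275. The rule bears on these last shares and on the densities per Mb, which include matches under conservative summits. It admits no conservative summit but the member in the 200 kb on either side. At the 1% threshold, matches under a conservative summit were 30272 of 117556 over the autosomes and 353 of 3646 within 200 kb of isolated summits.

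The direction of motifs was compared between an isolated peak and its direct neighbour on either side, where both had a match. Pairs of other peaks were likewise direct neighbours that both had a match. Over 352 such pairs more than 200 kb apart, 30.4% (25.6 to 35.5%) faced each other (convergent), 15.6% faced apart (divergent) and 54.0% pointed the same way. Pairs of other peaks that were also more than 200 kb apart were 37.7% (33.6 to 41.9%) convergent, 12.1% divergent and 50.2% alike in direction (n = 552). The intervals for convergent pairs overlap, which does not show that the shares are equal. From over 200 kb to 500 kb apart, 29.1% (23.3 to 35.3%) of 234 pairs with an isolated peak were convergent. Of 457 pairs of other peaks at these distances, 38.5% (34.0 to 43.1%) were convergent. Pairs of other peaks up to 200 kb apart were 21.6% convergent and 25.1% divergent (n = 19873). Pairs of isolated neighbours that both had a match were 24.3% convergent (18 of 74, 15.1 to 35.7%). Pairs that share a peak are not independent.

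Some isolated peaks shared their sequence with each other. Aligned by BLAST, the 300 bases of 80 members matched those of another member over at least 80 bp, and the median identity of the alignments was 76.2%. These fell into 13 groups, of which the largest had 41 members on many chromosomes. Of the 41, 36 had a soft-masked summit and 33 a motif match, and their median signal was 136. Matches under the strongest members that had one are printed, with the match in capitals, because members of this group lie at distant places in the genome.

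Adcyap1, chr17:92210920-92210969, plus strand: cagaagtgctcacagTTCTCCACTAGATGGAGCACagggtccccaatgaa
Prl4a1, chr13:27945237-27945286, minus strand: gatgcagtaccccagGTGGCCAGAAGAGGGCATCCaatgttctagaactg
Sgcd, chr11:47658301-47658350, minus strand: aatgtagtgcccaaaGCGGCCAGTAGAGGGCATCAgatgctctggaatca
Trib2, chr12:15078810-15078859, minus strand: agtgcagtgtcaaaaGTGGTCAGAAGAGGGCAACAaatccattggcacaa

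The last 3 of these 4 share the letters GAGGGCA in the capitals and similar flanks, whereas the first, nearest Adcyap1, has another core. The members were joined through chains of pairwise alignments, so not every pair in the group is alike. Which repeat family they belong to was not analysed here. Of the isolated peaks 7.30% (5.29 to 9.77%) aligned to a member of this group other than themselves. Of the other peaks 15.8% did, although the group was defined on isolated peaks. A soft-masked summit was less frequent in isolated (13%, 10.3 to 16.1%) than in other peaks (20.1%), in spite of the higher share of repeats around them. Of the whole grid 33.4% of positions were soft-masked, and of its empty positions 44.7%. Without all peaks that aligned to the group, the median signal was 205 in isolated and 317 in other peaks, the share with a motif was 61.2% and 65.5%, and the share of matches with a CpG was 23.5% and 42.6%. Among the matches left, the share with C at position 8 was 61.8% in isolated and 55.5% in other peaks. At position 16 the share with C was 72.4% and 82.6%, and at position 19 it was 25.1% and 35.9%.

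Each peak was then assigned to the protein-coding gene that contains it or, failing that, to the one with the nearest TSS. The 562 members fell to 441 genes, and 11 gene lists were counted. Genes beside large gene-free intervals take many peaks under this assignment, so each share is set beside that of the empty grid positions. The exact intervals treat peaks as independent, although several members can share a gene.

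Cadherins and nonclustered protocadherins, which mediate adhesion between neurons, took 31 isolated peaks (5.52%, 3.78 to 7.74%), against 0.541% of other peaks and 5.78% of the empty grid positions. These were assigned to 15 of the 33 genes of the list. The strongest by signal value, in parentheses here and for the lists below, were nearest Cdh6 (498), Cdh12 (473) and Pcdh20 (443). Immunoglobulin adhesion and guidance genes took 3.38% (2.05 to 5.23%) against 0.641% and a grid share of 3.12%, led by Cntnap2 (588), Cntnap5c (356) and Cntn5 (317). Genes with the symbol Cntnap were counted in this list by symbol alone, although Cntnap2 is neurexin-related, as stated above. In both lists the isolated peaks were thus about as frequent as positions with no peak nearby.

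Developmental transcription factors took 21 isolated peaks (3.74%, 2.33 to 5.66%) at 15 of 74 genes, against 0.714% of other peaks and 1.01% of the empty grid positions. Here the share lay above the grid as well. The strongest were nearest Meis2 (566), Ebf1 (557) and Sox2 (546), at 208536, 390988 and 453031 bp from the TSS. Ebf1 directs B cell and neuronal differentiation and Sox2 maintains neural stem cells. An isolated peak at the promoter of Sox11, a factor of neuronal differentiation, had a signal value of 348; it was picked after its value was seen. Neurexins, neuroligins, teneurins and latrophilins took 2.31% (1.24 to 3.92%) against 0.284% and a grid share of 1.20%, with Adgrl4 (505), Tenm3 (382) and Tenm4 (340) highest. Latrophilins were taken by the gene symbol Adgrl alone, which is how Adgrl4 entered this list. Potassium channel genes took 1.78% (0.856 to 3.25%) against 0.786% and a grid share of 0.638%, with Kcnd2 (396), Kcnv1 (345) and Kcns3 (320).

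Chemosensory receptor genes had lower shares than the empty grid positions, though higher ones than the whole grid, which had 0.893% for vomeronasal and 1.31% for olfactory receptors. Vomeronasal receptors took 10 isolated peaks (1.78%, 0.856 to 3.25%), against 0.0746% of other peaks but 4.21% of the empty grid positions, with Vmn1r181 (287), Vmn2r22 (271) and Vmn2r25 (263) strongest. Olfactory receptors took 2.14% (1.11 to 3.70%) against 0.396% and a grid share of 3.64%, which lies inside the interval, at 12 of 1127 genes, with Olfr1066 (477), Olfr1177-ps (444) and Olfr427 (411). Many of these genes have near-identical copies, where short reads are hard to place, and whether this bears on these shares was not tested.

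Glutamate and GABA receptor genes took 1.60% against 0.380% and a grid share of 1.95%, with Grm8 (461) highest and Grm3 at 188. Leucine-rich repeat synaptic genes took 1.07% against 0.142% and a grid share of 2.48%, led by Flrt2 (349), Slitrk1 (214) and Lrrtm4 (186). This list was taken by the gene symbols Lrrtm, Slitrk, Lrrc4, Flrt and Lrfn. It leaves out Lingo2, which held 4 isolated peaks with signal values up to 520. Zinc finger genes named Zfp took 1.25% against 1.38% and a grid share of 2.07%, led by Zfp352 (367), Zfp978 (240) and Zfp960 (207). Ribosomal protein genes, which are short and widely transcribed, took 1 isolated peak, 658160 bp from Rps29, or 0.178% against 0.392% and a grid share of 0.0751%.

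**Figure D5:**
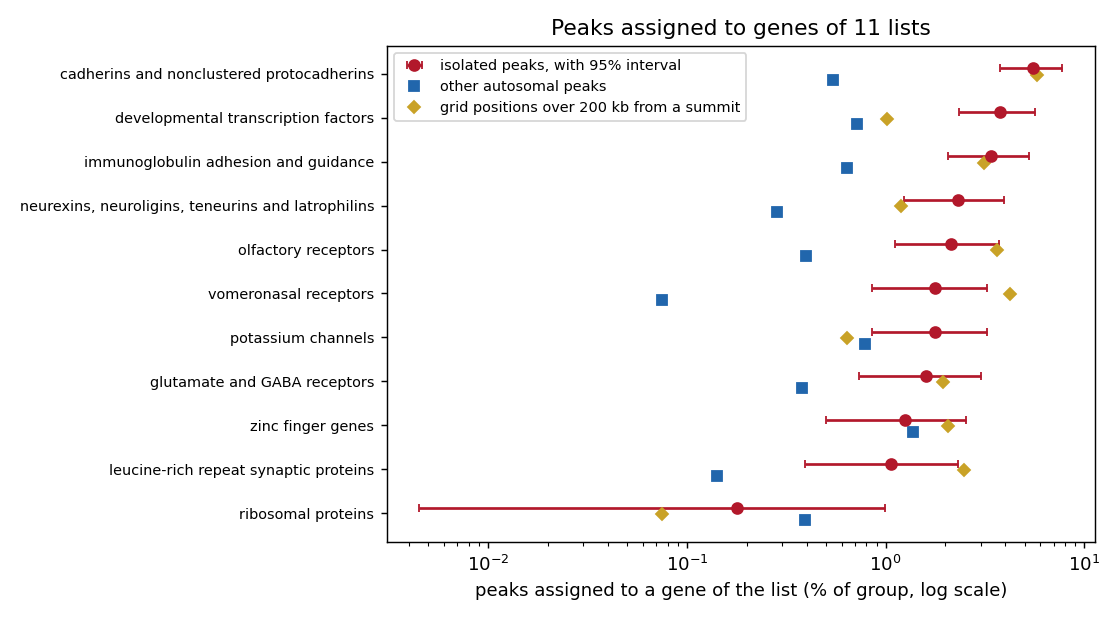
The percentage of isolated peaks (circles with exact 95% intervals), of other autosomal peaks (squares) and of grid positions over 200 kb from a conservative summit (diamonds) assigned to genes of each list, on a log axis. For developmental transcription factors the isolated share, 3.74%, lies above both the other peaks, at 0.714%, and the grid, at 1.01%, whereas for cadherins it lies at the grid share.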

How the data were processed

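CTCF ChIP-seq of left cerebral cortex was grouped by pool (pool I, pool J) from the labels. The authors deposited 8 peak lists on mm10: 4 cut at a threshold on the irreproducible discovery rate (IDR) and 4 ranked ones without it. Each deposited peak has a score (a scaled IDR up to 1000, at least 540 in the conservative list), a signal value in the peak caller's own unit and a summit offset. The IDR is also given as −log10 in the ranked lists that the authors deposited and was used for the alternative of an IDR of at most 0.01. The signal value per pool was taken from the ranked list of both pools, whose inputs were identified by interval (84.5% of first-input intervals equalled one of pool I, 61.8% of second-input intervals equalled one of pool J, and 0% did crosswise). The aligner, like the peak caller, is not given in the sources used here. Read depth is unknown, and libraries were merged within pools.

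Members were found in the conservative list from summit distances. The motif was a matrix of 20 positions trained on the 1000 conservative peaks of highest signal on odd-numbered autosomes, with the score threshold passed by 1% of windows 1000 bp to each side. Genes came from GENCODE M21 basic (20807 protein-coding and 9426 lncRNA genes on the autosomes), and repeats from the soft-masked GRCm38.p6 reference. Summits were classed in the order promoter (1000 bp), 5' UTR, coding exon and 3' UTR, then noncoding exon, intron and intergenic. Binomial intervals (exact, 95%) and intervals of medians (order statistics) cover the counting of peaks only. No p-value is given, since peaks of 1 genome are not replicates. Software was BLAST 2.17.0 (E at most 1e-05) and Python 3.11.15 with SciPy 1.17.1, numba 0.67.0, numpy 2.4.6, matplotlib 3.10.9 and pandas 2.3.3. The isolation rule and the motif scan were tested on simulated data.

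The members, gene lists and alternatives were chosen with earlier results of these data known. Peaks were named by rule: the 10 strongest, the 10 most isolated, 5 each for promoters, exons or UTRs, distance from a TSS, lowest signal and either end of the pool ratio, 3 on each side of the 200 kb limit, up to 10 genes with several members, and the 3 strongest per gene list. The grid shares per gene list and the analysis of similar sequences, including its 4 printed matches, were added after values had been seen. A few items that the rule names are not reported here.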

Additional observations from a re-analysis of the deposited data

How the results depend on the processing

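Of 41 alternatives, 24 kept the value within its spread (for the number of peaks, within 1.5 times), 16 moved it and 1 turned a direction round. The number of isolated peaks was 1804 with a window of 100 kb, 232 with 300 kb and 342 in the list of pool I, the longest one. It was 517 in the list from pooled reads, 517 in that of pool J and 581 at an IDR of at most 0.01, and with chromosome X, added after the data were seen, 623. The share with a motif was 9.25% at the strict and 90.0% at the loose threshold, and at the loose threshold the difference from the other peaks was 1.19 points, in place of -6.07. Weighted within signal quintiles, chosen after seeing the data, that difference was -1.37 and the difference in log2 pool ratio 0.04. Against all other ranked peaks the difference in log2 pool ratio was 0.21. Promoters held 2.67% with a window of 500 bp and 8.72% with 5000 bp. The median signal was 237 over members with a motif, and the median GC content 38.3% over 1 Mb. The share in both pool lists was 71.9% at a reciprocal overlap of 50%. The median distance to a TSS was 137316 bp over all gene types, the share of summits in repeats 9.61% by the majority of 100 bp, and the share still isolated among ranked summits 4.09%. Only 11 pairs had strict matches on both sides, and 27.3% of these were convergent. Assembly gaps touch 9 members, which have at least 1% N in their 400 kb, and 7 were the first or last peak of a chromosome. Leaving out single libraries was not run, since each list merges the libraries of its pools. No paired analysis was possible because no result comes from a test and the columns carry no library. Distances depend on the threshold of the list, and the unknown read depth limits how far an empty stretch can be read as free of CTCF.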
